A study of Mus musculus with 10 samples.

Results

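Hedgehog signalling was examined through 9 genes in whole-lung RNA of 10 mice: the ligand Shh, the receptor Ptch1, the signal transducer Smo, the inhibitors Hhip and Sufu, the transcription factors Gli1, Gli2 and Gli3, and the mesenchymal target Foxf1. They were taken by symbol from a table of 27179 Entrez genes, and all 9 were found there and passed the filter on low counts, which left 15301 genes. The EpithelialKO group held 5 mice of genotype Shh Cre/+ with IRE1α fl/fl, in which Cre driven by Shh's own locus deletes floxed Ern1, the gene of IRE1α, in Shh-expressing epithelium and its descendants. The Flox group held 5 mice with IRE1α fl/fl and 2 wild-type Shh alleles, so both groups carried the floxed alleles and the Flox mice carried no Cre. One Shh allele therefore carried Cre in every EpithelialKO mouse and in no Flox mouse, and for hedgehog genes the loss of Ern1 and the altered Shh locus cannot be told apart. The labels name no Cre control without floxed alleles, and give no age or sex for either group and no detail of how Cre was placed in Shh. The study compared the lung transcriptome with and without IRE1α, an endoplasmic reticulum stress sensor, in the epithelium.

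Hedgehog ligands bind Patched receptors and so release Smoothened, which Patched otherwise holds inactive. Active Smoothened frees GLI transcription factors from SUFU, and GLI proteins then switch on targets that include Gli1, Ptch1 and Hhip, whose products report pathway activity, and for Ptch1 and Hhip also restrain it. In the lung Shh is made by epithelial cells and is received mainly by fibroblasts and smooth muscle, where Foxf1, a forkhead factor of lung mesenchyme, depends on it during development. The members were thus spread over different cell types, with the ligand in the epithelium and the response in the stroma. In bulk RNA of a whole lung, fewer cells of a type and less RNA per cell cannot be told apart.

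Promoter sequences in RefSeq's table (GRCm38.p6) were matched for 6 of the 9 members. The 2 shown here belong to Ptch1 and Hhip, the members that are both textbook targets and feedback inhibitors of the pathway. Each is given 5′ to 3′ on the gene's own strand, here the minus strand. Capitals mark the GC box GGGCGG or its reverse complement CCGCCC. Each window holds the 250 bases before the start that the table uses. That start lies inside the gene's full RefSeq span, 52 bases from its upstream end for Hhip and 7725 bases for Ptch1, so the Ptch1 window is within the span given for the gene below and the sequence before its outermost start was not searched.
Hhip, chr8:80058009-80058258: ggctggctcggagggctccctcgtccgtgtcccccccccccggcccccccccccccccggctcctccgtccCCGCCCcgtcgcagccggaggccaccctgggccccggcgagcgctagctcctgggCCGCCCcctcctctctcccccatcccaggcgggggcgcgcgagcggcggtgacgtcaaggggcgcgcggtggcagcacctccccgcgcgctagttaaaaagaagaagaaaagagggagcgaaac
Ptch1, chr13:63565736-63565985: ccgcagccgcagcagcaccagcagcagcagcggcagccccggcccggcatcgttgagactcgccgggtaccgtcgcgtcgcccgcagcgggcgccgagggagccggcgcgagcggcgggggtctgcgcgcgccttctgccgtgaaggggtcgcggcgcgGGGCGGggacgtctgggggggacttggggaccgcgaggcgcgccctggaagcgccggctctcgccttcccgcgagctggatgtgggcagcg
Both windows were rich in G and C, at 76.0% for Hhip and 78.4% for Ptch1, and held a GC box, as did 32.7% of 32851 mouse promoter windows of that length. The consensus GLI site GACCACCCA was searched on both strands, first exactly and then with at most 1 letter changed, together with its shorter stretch CCACCCA, which overlaps it. None of the 6 member windows held any of these, and in all mouse promoters the shares were 0.225%, 5.79% and 8.11%. These letters were absent from these windows only, and more distant sequence was not searched.

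Totals per mouse lay between 16234895 and 18870247 counts in EpithelialKO and between 14983829 and 21224412 in Flox. Levels are given as CPM, the counts of a mouse scaled to a common library size by TMM, and folds are log2 of EpithelialKO over Flox with the standard error (SE) of an edgeR quasi-likelihood fit. Ern1, the targeted gene, had 12.3, 15.5, 10.7, 21.8 and 26.1 CPM in EpithelialKO mice 17, 18, 20, 21 and 22, against 20.1, 19.8, 15.6, 8.05 and 20.5 CPM in Flox mice 2, 3, 4, 5 and 6. Its log2 fold change was 0.04 ± 0.27 (SE), so counts over the whole Ern1 gene in whole lung did not check the labels, and EpithelialKO below means the libraries so labelled. Counts of Xist, which is transcribed from an inactive X chromosome, were 6 to 40 in the EpithelialKO mice, and 4 Y-linked genes summed there to 2775 to 3480. Flox mice 4 and 6 stood apart, at 3949 and 4866 for Xist and 0 for the Y-linked genes, where Flox mice 2, 3 and 5 had 2 to 61 and 2462 to 3575. The counts of mice 4 and 6 have a female pattern and those of all other mice a male one, so sex was not balanced between the groups. Sex class below means the presence or absence of Y-linked counts. The members' fold changes and the number of genes passing the threshold are therefore also given without mice 4 and 6. Fold changes of marker genes, other pathway genes and genes beside a member are given with all mice only. The same holds for the shares of genes without overlap and at an unadjusted p under 0.05. The part of sex class in those values is not shown. The 9 markers of alveolar type 2 cells (AT2), the surfactant producers of lung, summed to 49529 to 61150 CPM in EpithelialKO and 41295 to 49504 CPM in Flox.

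The ligand did not separate the groups. Shh (Entrez 20423, GRCm38 chromosome 5, 28456840 to 28467101), the main hedgehog ligand of lung epithelium, had 15.4, 15.6, 26.1, 17.2 and 11.1 CPM in EpithelialKO mice 17, 18, 20, 21 and 22, against 16.9, 15.4, 15.3, 25.9 and 13.7 CPM in Flox mice 2 to 6. The ranges overlapped almost fully, with EpithelialKO mouse 20 and Flox mouse 5 each well above the rest of its group. On the log2 scale Shh differed by -0.03 ± 0.22 (SE, edgeR adjusted p = 0.979), and the 95% interval of -0.49 to 0.43 did not reach -1, the value of a halved level. The log2 fold change was -0.23 without EpithelialKO mouse 20 and 0.16 without Flox mouse 5. Counts over the gene do not say which allele a transcript came from. The long non-coding RNA 9530036O11Rik shares 118 bases with Shh and had 3.42 ± 0.86 CPM in EpithelialKO and 3.51 ± 0.53 CPM in Flox (SD, n = 5 each), with a fold of -0.04 ± 0.28 (log2, SE). No source used here gives the strand setting of the counting, so reads in the shared bases could belong to either gene.

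Both receptor components averaged lower in EpithelialKO lungs without passing the test. Ptch1 (Entrez 19206, chromosome 13, 63508328 to 63573460), the ligand's receptor and a GLI target, had 8.40, 23.0, 10.7, 15.0 and 16.1 CPM in EpithelialKO mice 17, 18, 20, 21 and 22, against 26.2, 19.6, 29.0, 9.59 and 26.4 CPM in Flox mice 2 to 6. Flox mouse 5 lay among the low EpithelialKO mice and EpithelialKO mouse 18 among the Flox mice. For Ptch1 the log2 fold change was -0.60 ± 0.30 (SE, edgeR adjusted p = 0.447). With single mice omitted it ran from -0.82 without EpithelialKO mouse 18 to -0.45 without EpithelialKO mouse 17. Smo (Entrez 319757, chromosome 6, 29735497 to 29761366), the membrane protein that passes the signal on, had 22.2, 29.7, 23.4, 31.2 and 34.1 CPM in EpithelialKO, against 45.3, 31.9, 34.9, 37.3 and 55.2 CPM in Flox. EpithelialKO mouse 22 was the one EpithelialKO mouse above the lowest Flox mouse, 3. Smo had a log2 fold change of -0.54 ± 0.16 (edgeR SE, adjusted p = 0.174), or 68.7% of the Flox level.

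Hhip had the lowest edgeR p of the 9 genes, though not the largest fold change, which was that of Gli2. Hhip (Entrez 15245, chromosome 8, 79965850 to 80058060) encodes a membrane protein that sequesters hedgehog ligands and is itself induced by the pathway. It had 7.51, 10.9, 6.49, 8.92 and 8.39 CPM in EpithelialKO mice 17, 18, 20, 21 and 22, against 18.8, 12.9, 12.01, 22.0 and 22.3 CPM in Flox mice 2 to 6. Every EpithelialKO mouse lay below every Flox mouse. Hhip differed by -1.06 ± 0.21 on the log2 scale (SE), or 48.1% of the Flox level, with a 95% interval of -1.49 to -0.62. Its edgeR adjusted p of 0.0598 lay just above the threshold of 0.05, at rank 23 of 15301 genes, and the DESeq2 Wald test gave -1.06 ± 0.22 with an adjusted p of 0.000653. Over all alternatives the Hhip adjusted p ran from 0.000653 to 0.222 and its log2 fold change from -1.17 to -0.89. The other inhibitor, Sufu (Entrez 24069, chromosome 19, 46396896 to 46488804), which holds GLI proteins in the cytoplasm, had 2.31 to 6.32 CPM in EpithelialKO and 3.66 to 7.77 CPM in Flox. These ranges overlapped, and Sufu had a log2 fold change of -0.45 ± 0.29 (edgeR SE, adjusted p = 0.551). EpithelialKO mouse 22 had the lowest Sufu level of all, and without it the log2 fold change was -0.28.

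Of the 3 GLI factors, Gli1 and Gli2 averaged 51.5% and 47.8% of their Flox level in EpithelialKO, and Gli3 82.0%. Gli1 (Entrez 14632, chromosome 10, 127329882 to 127341579), an activator whose transcription is a standard readout of the pathway, had 4.53, 1.92, 2.56, 3.52 and 2.31 CPM in EpithelialKO mice 17, 18, 20, 21 and 22, against 4.93, 5.34, 4.84, 9.12 and 4.67 CPM in Flox mice 2 to 6. The groups did not overlap, but EpithelialKO mouse 17 and Flox mouse 6 were separated by a small gap, at 76 and 92 raw counts. Gli1 had a log2 fold change of -0.96 ± 0.30 (edgeR SE, adjusted p = 0.199), and without Flox mouse 5, which had the highest level, it was -0.74. Gli1 and the adjoining Arhgap9 share 66 bases, and Arhgap9 stood at 32.9 ± 8.66 CPM in EpithelialKO and 32.9 ± 6.67 CPM in Flox (SD, n = 5 each).

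Gli2 (Entrez 14633, chromosome 1, 118834061 to 119054405), the main activator downstream of Smoothened, had 1.91, 1.87, 0.998, 3.03 and 0.79 CPM in EpithelialKO, against 4.47, 1.99, 2.82, 4.26 and 4.52 CPM in Flox. EpithelialKO mouse 21 exceeded Flox mice 3 and 4, and the other EpithelialKO mice lay below all Flox mice. Its raw counts were 14 to 56 in EpithelialKO and 37 to 96 in Flox, and its CPM had a coefficient of variation between mice of 51.7% in EpithelialKO and 31.6% in Flox. Its log2 fold change of -1.07 ± 0.40 (edgeR SE, adjusted p = 0.277) had the largest SE of the 9. Gli3 (Entrez 14634, chromosome 13, 15463723 to 15730026), which is cut to a repressor when the ligand is absent, had 2.25 to 5.24 CPM in EpithelialKO and 2.72 to 7.26 CPM in Flox, with a log2 fold change of -0.29 ± 0.33 (edgeR SE, adjusted p = 0.775). Flox mouse 5 alone held the highest Gli3 level, and without it the log2 fold change was -0.02, while without EpithelialKO mouse 22 it was -0.48, without mouse 20 -0.16 and without mouse 17 -0.19. The transcript level does not show how much GLI3 protein was cut. Differences between the fold changes of the GLI factors were not tested.

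Foxf1 (Entrez 15227, chromosome 8, 121084386 to 121088154), the forkhead factor of lung mesenchyme that is also made in endothelial cells, was the most abundant member. It had 87.6, 105, 69.4, 77.8 and 90.6 CPM in EpithelialKO mice 17, 18, 20, 21 and 22, against 103, 140, 101, 88.3 and 158 CPM in Flox mice 2 to 6. EpithelialKO mice 18 and 22 exceeded the lowest Flox mouse, 5. Foxf1 differed by -0.46 ± 0.15 on the log2 scale (SE, edgeR adjusted p = 0.244), or 72.9% of the Flox level. The long non-coding RNA Fendrr, which lies 1275 bases from Foxf1 in RefSeq, had 36.4 ± 3.81 CPM in EpithelialKO and 47.9 ± 11.8 CPM in Flox (SD, n = 5 each), and a log2 fold of -0.40 ± 0.14 (SE, edgeR adjusted p = 0.266). Mthfsd, 3473 bases away and encoding a folate-linked protein, had -0.36 ± 0.18 (SE, edgeR adjusted p = 0.435). These neighbours thus had group fold changes near that of Foxf1, and none passed. The mice did not follow the same order. Flox mouse 5 had the highest Fendrr, 66.9 CPM, and the lowest Foxf1 of its group, 88.3 CPM.

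**Figure D1:**
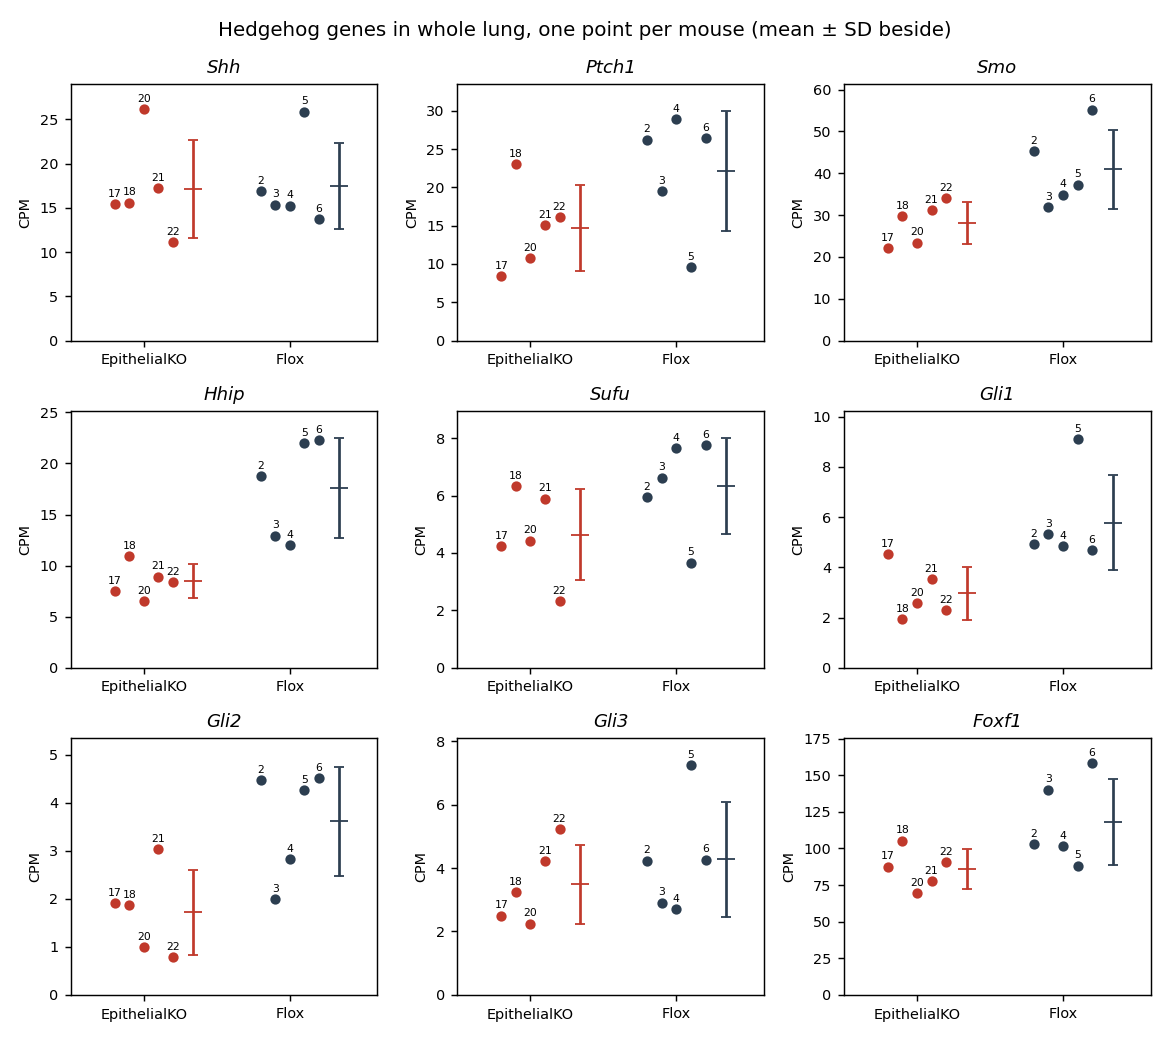
Level of each of the 9 hedgehog genes in CPM (linear axis from 0), 1 point per mouse with its number, EpithelialKO left and Flox right, with the mean and SD beside each group. Hhip and Gli1 are the panels in which no EpithelialKO mouse reaches a Flox mouse, while the Shh ranges overlap.

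Over the 9 genes, none passed an edgeR adjusted p of 0.05, against 0.0392% of all 15301 genes tested, or 6 genes, 5 of them lower in EpithelialKO (0.0327%). All 9 log2 fold changes were negative, against 49.9% of all genes, and their median was -0.54 against 0.00 over all genes. At an unadjusted p under 0.05, Hhip, Smo, Gli1, Foxf1 and Gli2 were lower in EpithelialKO, 5 of 9, against 6.52% of all genes. By DESeq2's Wald test 1 member, Hhip, passed on the lower side, against 1.49% of the 11352 genes with an adjusted p. DESeq2 gave no adjusted p for Sufu, Gli1, Gli2 and Gli3, so these members could not pass there. Groups did not overlap for 2 of 9 members, Hhip and Gli1, both lower, against 1.48% of all genes with every EpithelialKO value below every Flox value. Such shares were not particular to hedgehog genes. At an unadjusted p under 0.05, 8 of 9 endothelial, 6 of 9 alveolar fibroblast and 4 of 9 smooth muscle markers, described below, were lower. Groups did not overlap for 2, 2 and 1 of them. Fewer pericyte (2 of 6) and adventitial fibroblast markers (1 of 8) were lower at that p, and 8 of 12 pan-epithelial markers were higher. The members were chosen with earlier results of these mice known, so these shares describe the genes and are not a test of the pathway.

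**Figure D2:**
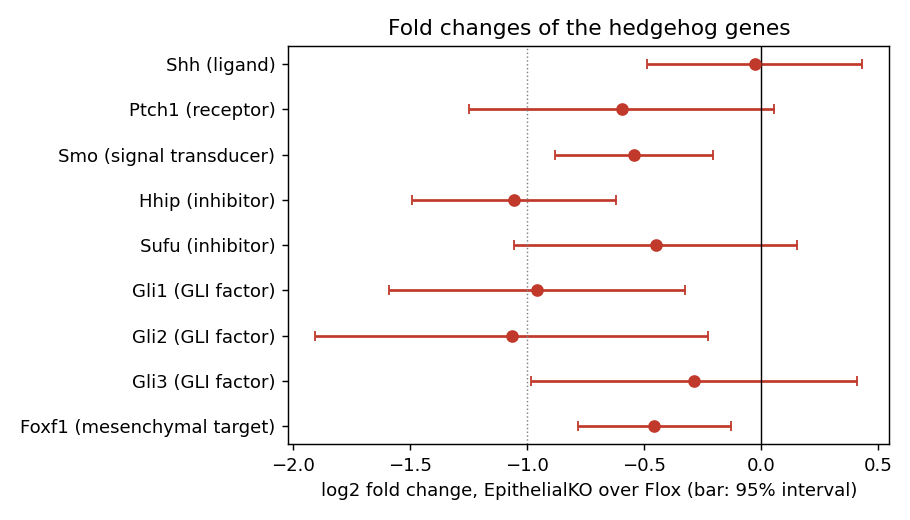
Log2 fold change of each member, EpithelialKO over Flox, with its 95% interval from the edgeR fit; the solid line marks 0 and the dotted line -1. The intervals of Hhip (-1.49 to -0.62), Gli1, Gli2, Smo and Foxf1 lie below 0, and those of Shh, Ptch1, Sufu and Gli3 span it.

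The mice did not line up on a single scale. Flox mouse 6 had 7 members among the 3 highest of the 10 mice, and Flox mouse 5 had 6. Flox mouse 5 also had 2 members, Ptch1 and Sufu, among the 3 lowest, so it combined the highest Gli1 and Gli3 with a low Ptch1. EpithelialKO mice 20 and 17 had 7 and 6 members among the 3 lowest, and EpithelialKO mouse 21 had 1. Flox mouse 5 had the lowest total count of the 10, and limma-voom gave it the lowest sample weight, 0.479.

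Per kilobase of merged exon (GENCODE M21), Foxf1 stood first in both groups, at 35.7 ± 5.63 CPM per kilobase in EpithelialKO and 48.9 ± 12.2 in Flox (SD, n = 5 each). Shh, at 6.00 ± 1.95 in EpithelialKO and 6.12 ± 1.71 in Flox, and Smo, at 5.00 ± 0.91 in EpithelialKO and 7.28 ± 1.68 in Flox, followed without differing from each other beyond their spread. Ptch1 and Hhip formed the next step, at 1.03 ± 0.40 and 0.93 ± 0.18 in EpithelialKO and at 1.56 ± 0.55 and 1.94 ± 0.54 in Flox. Below them Sufu, Gli1, Gli2 and Gli3 lay between 0.25 and 0.60 in EpithelialKO and between 0.45 and 1.16 in Flox. From Ptch1 and Hhip downwards each gene differed from the next in order by less than the sum of their SDs, so this part of the order is not resolved.

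Leaving out Flox mice 4 and 6 kept all 9 log2 fold changes negative. Without them the values were -1.12 for Gli1, -1.08 for Hhip, -1.05 for Gli2, -0.44 for Smo, -0.36 for Foxf1 and -0.34 for Ptch1, and the median was -0.44. The lowest edgeR adjusted p among the members was then 0.214, for Hhip, and no gene of the whole table passed, with 1207 genes at an unadjusted p under 0.05. Ptch1 and Sufu moved most, to -0.34 and -0.23, and both omitted mice were among the 3 highest for each. Gli1, Gli2, Hhip, Gli3 and Shh were nearly as negative or more so without them. With all mice and sex class as a covariate, all 9 were again negative. Values were then -1.12 for Gli1, -1.08 for Hhip (edgeR adjusted p = 0.222), -0.36 for Foxf1 and -0.34 for Ptch1.

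**Figure D3:**
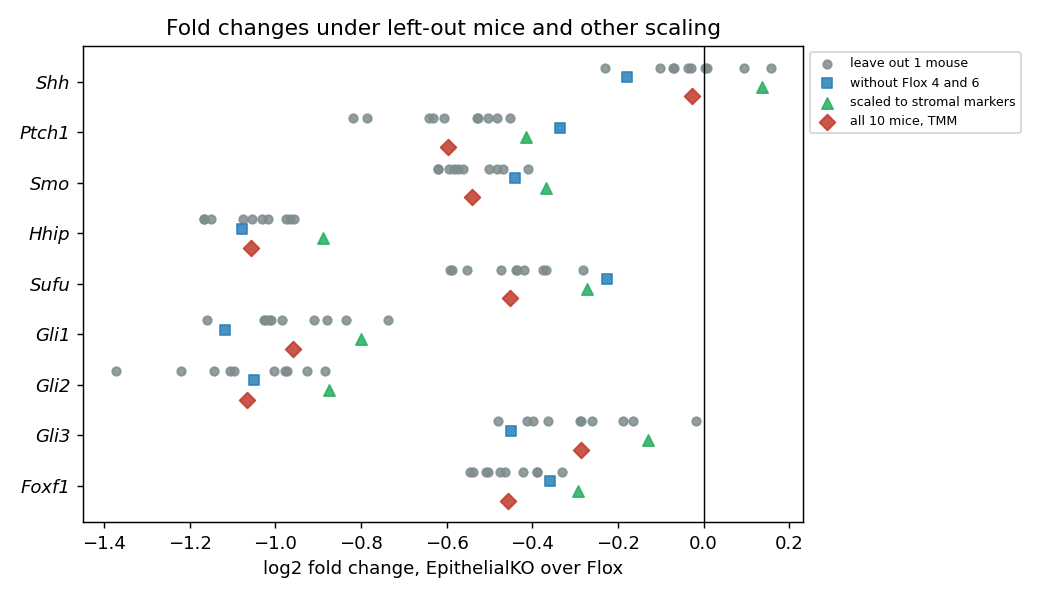
Log2 fold change of each member (x axis, EpithelialKO over Flox) with all 10 mice, without each mouse in turn, without Flox mice 4 and 6, and with libraries scaled to stromal markers. Hhip stays between -1.17 and -0.89 over these settings, whereas Shh lies on both sides of 0.

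Marker genes of the receiving cells also averaged lower in EpithelialKO, without passing the test. All 9 smooth muscle markers had negative fold changes with 0 past the threshold (median log2 -0.44), and their summed level ran from 280 to 491 CPM in EpithelialKO and from 374 to 487 CPM in Flox. The smooth muscle myosin Myh11 had -0.66 ± 0.21 and the actin-binding Synpo2 -0.996 ± 0.22 (SE, edgeR adjusted p = 0.208 and 0.105), while Cnn1 and Acta2 had -0.52 ± 0.21 and -0.44 ± 0.20. EpithelialKO mouse 17 had the highest smooth muscle sum of all 10 mice, 491 CPM, and also the highest Gli1 of its group, but its Hhip of 7.51 CPM was the second lowest. All 9 alveolar fibroblast markers were negative (median -0.38), summing to 2837 to 3224 CPM in EpithelialKO and 3204 to 4243 CPM in Flox. Adventitial fibroblast markers, of the cuff cells in which Gli1 is known to be expressed, had a median of -0.15 with 7 of 8 negative and sums of 812 to 996 CPM in EpithelialKO and 786 to 979 CPM in Flox. Pericyte markers had a median of -0.14 and sums of 277 to 459 CPM in EpithelialKO and 342 to 442 CPM in Flox.

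Endothelial markers, relevant to Foxf1, had 9 of 9 negative (median -0.45), with sums of 2236 to 2778 CPM in EpithelialKO and 2758 to 3777 CPM in Flox. On the side of the ligand, all 12 pan-epithelial markers were positive (median 0.34), with sums of 1154 to 1457 CPM in EpithelialKO and 920 to 1180 CPM in Flox, while Shh itself had -0.03. The 9 AT2 markers were likewise all positive (median 0.25), and 8 markers of alveolar type 1 cells, the flat cells that line the alveolus, had a median of -0.01. All 5 mesothelial markers were negative (median -0.58), with 0 at an unadjusted p under 0.05. Sums of mesothelial markers varied widely, from 148 to 589 CPM in EpithelialKO and from 310 to 756 CPM in Flox. Heart muscle markers had 5 of 6 negative (median -0.10), with sums of 58.1 to 199 CPM in EpithelialKO and 82.2 to 209 CPM in Flox. No gene of any marker list passed in edgeR. When libraries were scaled to the summed smooth muscle, alveolar and adventitial fibroblast markers, the median of all genes moved to 0.17, and the log2 fold changes were -0.89 for Hhip (edgeR adjusted p = 0.0543), -0.87 for Gli2, -0.80 for Gli1, -0.41 for Ptch1, -0.37 for Smo and -0.29 for Foxf1. Under that scaling Hhip was the one member whose groups did not overlap, Shh turned positive at 0.14, and of 105 genes called 2 were lower, against 5 of 6 with TMM. The share of all genes without overlap was not computed for that scaling. The scale was a plain sum over these markers. Alveolar fibroblast markers made up 3040 CPM of it on average in EpithelialKO and 3487 CPM in Flox, and smooth muscle markers 341 and 429 CPM. A single alveolar fibroblast marker averaged 1949 CPM in EpithelialKO and 2089 CPM in Flox, with a log2 fold change of -0.10 ± 0.12 (edgeR SE). The alveolar fibroblast sum and the scale thus rest largely on that gene. Such a scale shifts all genes by a similar amount. It therefore cannot show whether a member fell by more than the cells that express it. The part of stromal marker levels in the members' values was not tested.

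**Figure D4:**
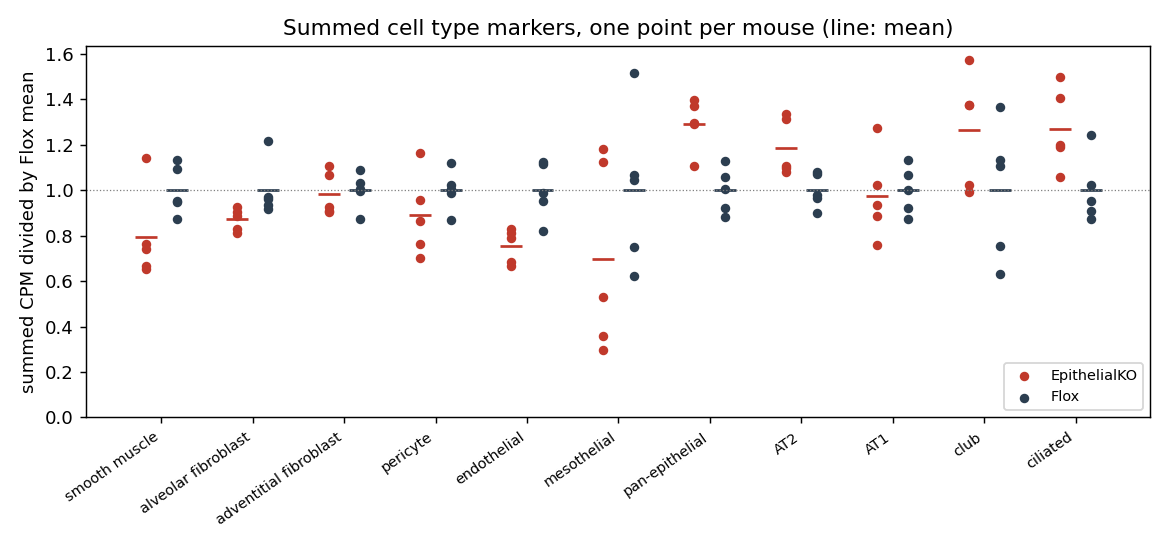
Summed CPM of each marker list divided by the Flox mean of that list, 1 point per mouse, EpithelialKO left of Flox, lines at group means. Endothelial and alveolar fibroblast sums average lower in EpithelialKO and pan-epithelial sums higher, with AT1 and adventitial fibroblast sums near the Flox level.

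Of 47 other hedgehog pathway genes, 45 were tested and none passed the threshold in edgeR, with 5 lower and 2 higher at an unadjusted p under 0.05, against 6.52% and 5.87% of all genes tested. Their log2 fold changes were negative in 28 and positive in 17, with a median of -0.06. Groups did not overlap for 2 of the 45, Scube2 and Tbx2, both lower, against 1.48% of all genes lower in that way. DESeq2's Wald test called the same 2 genes, against 1.49% of genes with an adjusted p called lower. The clearest value was that of Scube2, a secreted protein that carries lipid-modified hedgehog ligand away from the producing cell. Scube2 had 6.97, 12.3, 12.2, 14.5 and 10.1 CPM in EpithelialKO mice 17, 18, 20, 21 and 22, against 22.7, 17.8, 25.5, 15.0 and 34.8 CPM in Flox mice 2 to 6. Its groups did not overlap, though EpithelialKO mouse 21 and Flox mouse 5 lay close together. With all 10 mice Scube2 had a log2 fold change of -1.05 ± 0.23 (edgeR SE, adjusted p = 0.103), close in size to that of Hhip. It passed by DESeq2's Wald test and in edgeR without Flox mouse 5. Its 2 highest values, 34.8 and 25.5 CPM, were those of Flox mice 6 and 4, which have the female pattern. In edgeR it did not pass without these 2 mice or with sex class as a covariate. Its fold change in those fits is not given here. The other genes of ligand production and release were at low levels. Hhat, the acyltransferase of the ligand, had -0.75 ± 0.48, Disp1, which exports it, 0.06 ± 0.25, the related Scube3 0.31 ± 0.73 and the ligand Dhh 0.05 ± 0.33 (SE, edgeR adjusted p from 0.551 to 0.974), and Ihh, with 19 counts over the EpithelialKO mice and 38 over the Flox mice, was not tested.

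Among 5 receptors and co-receptors, 4 had negative fold changes, with a median of -0.49. The co-receptors Cdon, Gas1 and Boc had -0.56 ± 0.25, -0.49 ± 0.24 and -0.26 ± 0.14 (SE, edgeR adjusted p from 0.387 to 0.484). The groups overlapped in each of these genes. Regulators of SMO and GLI proteins had a median of -0.05 over 16 tested genes, of which 11 were negative. Stk36, a kinase linked to hedgehog signalling in flies and to motile cilia in mice, had 0.61 ± 0.22 (SE, edgeR adjusted p = 0.269). Gsk3b, a kinase that marks GLI proteins for processing, had -0.19 ± 0.10, and Evc, a ciliary partner of SMO, had -0.36 ± 0.19. All 8 markers of ciliated cells were positive (median 0.46), with sums of 717 to 1014 CPM in EpithelialKO and 590 to 840 CPM in Flox, and the part of those cells in the Stk36 value was not tested.

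Transport genes of the primary cilium, through which the vertebrate pathway runs, had a median of 0.06 over 9 genes, with none under an unadjusted p of 0.05. The dynein Dync2h1 had 0.37 ± 0.21, the kinesin Kif3a 0.17 ± 0.12, and Ift122 and Ift140, of the retrograde transport complex, -0.20 ± 0.16 and 0.13 ± 0.14 (SE, edgeR adjusted p from 0.492 to 0.757). Of 10 other mesenchymal targets, 8 were negative with a median of -0.27. Tbx2, a T-box factor of lung mesenchyme, had 145, 171, 186, 115 and 92.5 CPM in EpithelialKO, against 232, 187, 213, 194 and 197 CPM in Flox, with no overlap but near contact between EpithelialKO mouse 20 and Flox mouse 3. Tbx2 had a log2 fold change of -0.53 ± 0.16 (edgeR SE, adjusted p = 0.177). Foxf2, the paralog of Foxf1, had -0.56 ± 0.26 and the survival gene Bcl2 -0.39 ± 0.14, whereas the cyclin gene Ccnd1 had 0.21 ± 0.09 (SE, edgeR adjusted p from 0.266 to 0.411).

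**Figure D5:**
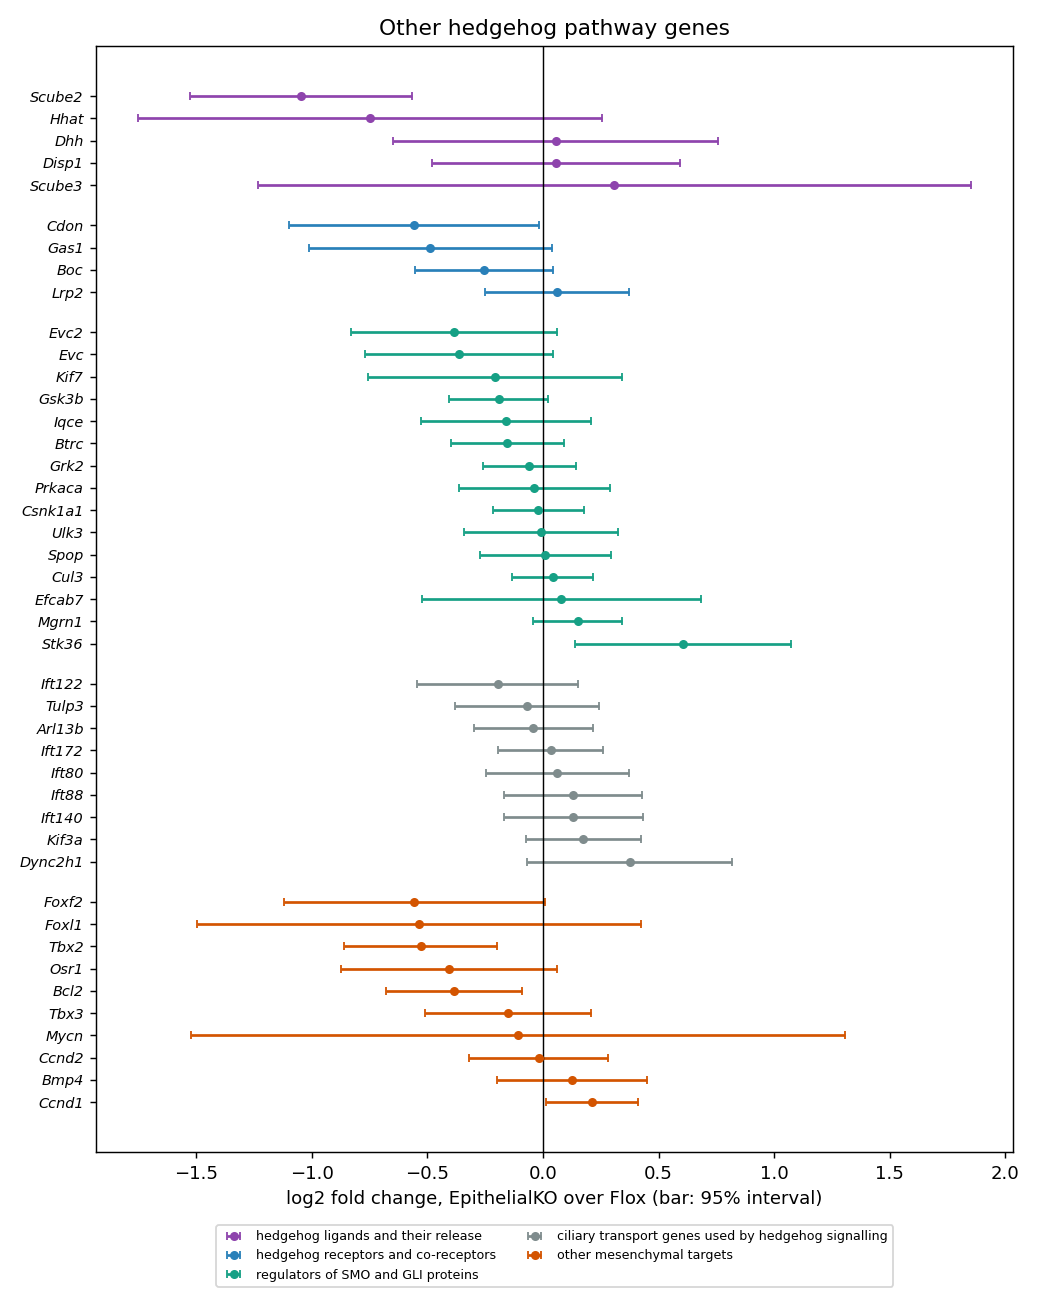
Log2 fold change with its 95% interval (x axis, EpithelialKO over Flox) for 43 of the 45 tested pathway genes that are not among the 9, grouped by role and ordered by value within each role. Scube2 lies at -1.05 and most regulators and ciliary transport genes lie near 0.

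Within groups, the members followed different genes. After each group's mean log2 CPM was subtracted, the gene most like Hhip over the 10 mice among 13744 genes was Zfp493 (Pearson r = 0.92, Spearman rho = 0.92), and for Gli1 it was Tmed7 (r = 0.98, rho = 0.85). The closest genes were Mfsd4a for Ptch1, Polr1b for Shh, Haspin for Sufu, Ogdh for Gli2, Maged1 for Gli3 and Smg8 for Foxf1, with r from 0.91 to 0.97. None of them was another member, and each r is the highest of 13744 over 10 mice, which share library and depth differences. These likenesses describe the mice and carry no test.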

How the data were processed

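Whole-lung RNA of 5 EpithelialKO and 5 Flox mice was sequenced from poly(A)-selected, fragmented RNA primed with random hexamers, per the labels' protocols. Per the submitters' processing notes, cutadapt trimmed the reads, HISAT2 aligned them and the build was GRCm38; the sources used here give no versions, counting tool, counted annotation or strand setting. The authors deposited raw counts by Entrez gene, in 1 column per mouse. Of 27179 genes, 25275 matched a RefSeq symbol.

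Counts were filtered with filterByExpr, scaled by TMM and tested with edgeR 4.0.16 (robust quasi-likelihood F test with group as covariate; R 4.3.3), and p-values were adjusted by Benjamini-Hochberg over all 15301 tested genes and a threshold of 0.05. Intervals are 95% and use the SE derived from the F statistic. CPM are means ± SD over 5 mice. The pipeline was tested on simulated data. Alternatives included DESeq2 1.42.0, limma 3.58.1 (voom), other scalings and filters, sex class as a covariate and left-out mice; those for the pathway count, the member median and the count of members without overlap were added after seeing the data. Mice of a group differed by more than counting noise (chi-square per degree of freedom of at least 17.8), so each is 1 sample; nothing pairs mice across groups. Motifs were searched in the 250 bases before each start used in RefSeq's promoter table, and lengths came from GENCODE M21.

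The members, gene lists and tests were chosen with earlier results of these data known. The text names all 9 members, up to 4 genes of lowest p per list described, Ern1, genes beside a member, and the gene whose group-centred log2 CPM (prior count 2, mean of at least 1 CPM) is most like each member's; of the 3 such genes per member the closest is printed. A few genes that this rule names are not reported here, and the counts and medians of their lists include them.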

Additional observations from a re-analysis of the deposited data

Results flagged for a closer look

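In 2 of the 22 groups of values examined (the 9 members, Ern1 and the total count, in each group of mice), 1 mouse lay far from the other 4; chance gives about 1 in 20. Both involved Flox mouse 5, with 25.9 CPM of Shh, where the other Flox mice had 13.7 to 16.9 CPM, and 9.12 CPM of Gli1, where they had 4.67 to 5.34 CPM. This mouse had the lowest total count, 14983829. Without it the log2 fold change was 0.16 for Shh and -0.74 for Gli1.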

How the results depend on the processing

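The 9 members gave 176 fold changes under the alternatives, of which 167 kept their direction and their side of the threshold. No member passed in the main fit, so keeping the side meant not passing. The fits share most of their mice, and the threshold of 0.1 reused the main fold changes. The count of 167 is therefore no measure of robustness. DESeq2 gave no adjusted p for Sufu, Gli1, Gli2 and Gli3. Members past the threshold numbered 1, Hhip, with no count filter (adjusted p = 0.0238), with the threshold at 0.1 (0.0598) and by DESeq2 (0.000653), and 0 in each edgeR fit without a mouse. Shh was positive with stromal marker scaling (0.14) and limma-voom (0.091), and ran from -0.23 to 0.16 without single mice. Members without overlap numbered 1 with stromal marker scaling and 2 to 3 without single mice. The share of all genes without overlap was not computed for these fits. Groups also separate more easily with a mouse left out, so these counts do not compare with the share for all 10 mice. The member median ran from -0.62 to -0.41 without single mice. Other pathway genes past the threshold were 2 by DESeq2 (Scube2 and Tbx2, against 1.49% of genes called lower there). They were 0 to 1 without single mice, the 1 being Scube2 without Flox mouse 5. Over the whole table the 6 calls became 105 with stromal marker scaling, 34 with no filter, 1 with sex class, 0 without Flox mice 4 and 6, 38 at a threshold of 0.1, 275 by DESeq2, 29 by limma-voom, and 0 to 48 without single mice, the 48 being without Flox mouse 5; the cause was not tested. The fits with 0 calls held 1207 to 1960 genes at an unadjusted p under 0.05. Gli2 had the lowest counts of the members, at 14 to 96 per mouse. No paired analysis was possible because the groups share no mouse number.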
